A study of Mus musculus with 4 samples.

Results

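Cdk5rap1, Tmem181b-ps, Eps8l1, Coil, Atf7ip2, Slc27a3 and Slc15a2 were examined in single glomerular cells of wild-type mice (WT) and of mice carrying Col4a5 G5X, a stop early in the X-linked gene for a type IV collagen chain (AS, a model of Alport syndrome). These 7 of the 55488 genes in the files were chosen by measured values: their AS to WT difference had appeared outside podocytes, in 1 direction at both ages or at 5 weeks. The AS to WT ratios below therefore describe the selection and test nothing. Glomeruli, the capillary tufts that filter blood, were taken at 5 weeks, which the submitters place before proteinuria and structural change, and at 8 weeks, when proteinuria was mild and podocytes and basement membrane were abnormal. Each of the 4 groups was 1 library (WT and AS at each age), with no replicate, so no p-value is given and genotype cannot be told apart from any other difference between 2 libraries. The labels give no strain, sex, treatment or number of mice per library, and nothing beyond the Col4a5 allele separates AS from WT there. Their tissue field names an embryonic kidney, while the titles and design give the ages used here.

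The libraries held 74356581 to 126118422 unique molecular identifiers (UMIs, counted mRNA molecules) in 6604 to 7963 barcodes, of which 5556 to 6832 were kept as single cells. Any pair of libraries shared 13 to 18 barcodes, at most 0.24% of the smaller. Cells were grouped with the 7 genes left out, and classes were named from markers. Podocyte-like cells (the epithelium around the capillaries) numbered 1508 to 2652 per library, glomerular endothelial-like cells 786 to 2637 and mesangial-like cells (contractile support cells between capillaries) 294 to 1341. The WT library at 8 weeks stood apart in several ways. Cluster 11, which also holds endothelial markers, made up 37.4% of its mesangial-like cells and 64.0% of their UMIs, against 1.63% to 5.15% of cells and 0.185% to 3.49% of UMIs elsewhere. Mesangial-like ratios of the 7 genes at 8 weeks are therefore also given without it. Glomerular endothelial-like cells were 12.8% of its kept cells against 33.3% to 40.9% elsewhere, and unnamed cells 30.97% against 10.2% to 17.5%, with 761 of its cells in the shallow cluster 19. Markers of proximal tubule summed to 52.7 to 153 CPM (counts per 1e6 UMIs of the class total) in its 3 classes, against 2.62 CPM or less in the other libraries. Different clusters held most podocyte-like cells of each library: cluster 0 in WT and 1 in AS at 5 weeks, cluster 2 in WT and 17 in AS at 8 weeks. Cluster 0, in WT at 5 weeks, was led by the interferon-inducible Gbp2, and endothelial cluster 21, led by Cxcl11 and Cxcl10, held 21 cells, all from that library. Glomerular endothelial-like cells lay mainly in cluster 5 at 5 weeks and cluster 8 at 8 weeks in both genotypes.

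The 7 genes belong to no common pathway. Cdk5rap1 is a mitochondrial enzyme that adds a methylthio group to certain tRNAs. Tmem181b-ps is a transcribed pseudogene of the membrane protein family of Tmem181a. Eps8l1 resembles EPS8, which links receptor signalling to actin remodelling. Coil encodes coilin, the scaffold of the nuclear Cajal bodies where small nuclear RNPs mature. Atf7ip2 is a relative of ATF7IP, a partner of the histone methyltransferase SETDB1. Slc27a3 is a member of the fatty acid transport protein family with acyl-CoA synthetase activity, and Slc15a2 encodes PEPT2, a proton-coupled carrier of small peptides known from the apical membrane of kidney tubule cells.

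The shift was not alike in every class for all 7 genes. A difference of 1.5-fold on the scale log2((CPM in AS + 5)/(CPM in WT + 5)) was taken as the mark, and a gene was compared where 1 of the 2 libraries held at least 30 UMIs. At 5 weeks 4 genes passed it in 1 direction in all 3 classes: Cdk5rap1, Tmem181b-ps and Eps8l1 were higher in AS, and Slc15a2 was lower. At 8 weeks 3 did, Cdk5rap1, Tmem181b-ps and Slc15a2, each higher in AS. Cdk5rap1 and Tmem181b-ps were thus the only 2 of the 7 past 1.5-fold in 1 direction in every class at both ages, Eps8l1 being higher throughout but under that mark in podocyte-like cells at 8 weeks. Coil differed in direction between classes, Atf7ip2 was measurable in mesangial-like cells only, and Slc27a3 passed 1.5-fold in podocyte-like cells at 8 weeks alone (and in mesangial-like cells at 8 weeks once cluster 11 was left out). Among all genes measured in the 3 classes, 0.0616% were higher and 0.343% lower past 1.5-fold in all of them at 5 weeks, and 0.12% and 0.359% at 8 weeks. Both ages together gave 0.0179% higher, which are 2 of 11151 genes and are Cdk5rap1 and Tmem181b-ps themselves, and 0.0179% lower. Within 1 class the share of genes past 1.5-fold in either direction was 2.73% in podocyte-like, 1.67% in glomerular endothelial-like and 2.59% in mesangial-like cells at 5 weeks. The 8-week shares were 5.56%, 3.65% and 9.76%. Since the genes were selected on this contrast, nothing is read from their count against those shares.

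**Figure D1:**
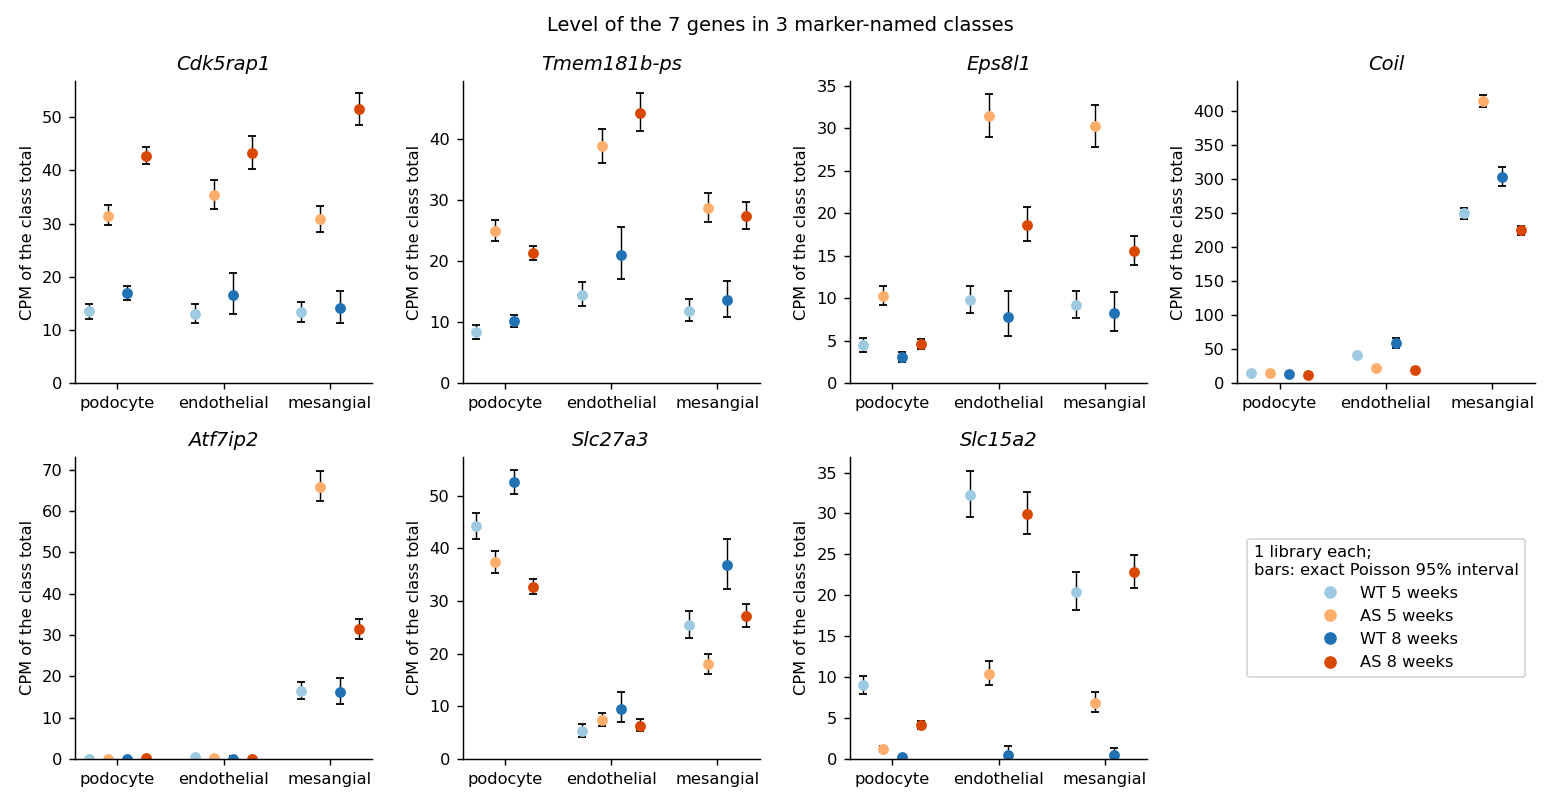
Level of each gene (vertical axis, CPM of the class total) in the 3 classes of cells of the 4 libraries (colours), with exact Poisson 95% intervals as bars. Both AS libraries lie above both WT libraries in all 3 classes for Cdk5rap1 and Tmem181b-ps, Atf7ip2 is near 0 outside mesangial-like cells, and Slc15a2 is near 0 in the WT library at 8 weeks.

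Cdk5rap1 (ENSMUSG00000027487) is a minus-strand gene of chromosome 2, bases 154335380 to 154373010 in GRCm38, as annotated in GENCODE M21. In podocyte-like cells it stood at 13.5 CPM in WT against 31.5 CPM in AS at 5 weeks, and at 16.9 against 42.7 CPM at 8 weeks. Glomerular endothelial-like cells had 13.1 against 35.4 CPM at 5 weeks and 16.5 against 43.3 CPM at 8 weeks. Mesangial-like cells had 13.3 against 30.8 CPM at 5 weeks and 14.05 against 51.5 CPM at 8 weeks. The 6 WT values thus lay between 13.1 and 16.9 CPM, and the 6 AS values between 30.8 and 51.5 CPM. The genes were chosen on this contrast. The share of all genes with such an order, here and for Tmem181b-ps and Atf7ip2 below, was not counted. The WT levels of neighbouring classes had overlapping counting intervals at each age. The log2 ratios were 0.98 (95% interval 0.85 to 1.11), 1.16 (0.99 to 1.33) and 0.97 (0.79 to 1.14) at 5 weeks, taking podocyte-like, then glomerular endothelial-like, then mesangial-like cells. At 8 weeks they were 1.12 (1.03 to 1.22), 1.16 (0.90 to 1.43) and 1.57 (1.33 to 1.81), the last at 1.41 without cluster 11. All intervals here cover counting error only.

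More cells held a Cdk5rap1 UMI in AS as well. With each cell thinned to 5000 UMIs the share of podocyte-like cells was 7.13% in WT against 13.7% in AS at 5 weeks, and 7.60% against 19.97% at 8 weeks. The unthinned shares were 18.6% and 43.7%, and 20.1% and 59.4%. Cells deep enough to be thinned numbered 1529 (WT) and 1483 (AS) at 5 weeks, then 2486 (WT) and 2183 (AS). Thinned shares of glomerular endothelial-like cells were 6.22% and 15.8% at 5 weeks, then 7.37% and 18.5%, so the 2 classes, which differ in depth, showed the same order. Between the ages of 1 genotype the difference was smaller in each class: 8 over 5 weeks gave 0.24, 0.25 and 0.06 within WT and 0.39, 0.26 and 0.66 within AS, on the same log2 scale and in the same class order.

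Outside the 3 classes Cdk5rap1 was compared in clusters with at least 50 cells in both libraries. These are not all separate cell types. Clusters 4 and 13 scored as podocyte and cluster 7 as glomerular endothelial but were unnamed for low depth, and cluster 6 scored best as glomerular endothelial with arterial endothelial close behind. Cluster 7 was led by Pf4 and Ppbp, which are in none of the marker lists, so its score does not settle its cell type. Cdk5rap1 was higher in AS in 6 of 7 such clusters at 5 weeks and in 5 of 5 at 8 weeks, and the counting interval excluded 0 in 4 of each. In cluster 6, an unnamed group led by Esm1, it had 14.7 CPM in WT against 36.6 CPM in AS at 5 weeks, and 19.4 against 54.4 CPM at 8 weeks. In B-like cluster 12 at 5 weeks 1 UMI in WT stood against 22 in AS, a log2 ratio of 3.08 (1.45 to 3.83). The exception was cluster 15, led by the renin gene Ren1 and the smooth muscle genes Acta2 and Myh11. There Cdk5rap1 had 28 WT UMIs (25.8 CPM) and 38 AS UMIs (22.2 CPM) at 5 weeks, a log2 ratio of -0.18 (-0.79 to 0.44), and 1.14 (0.64 to 1.63) at 8 weeks.

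Tmem181b-ps (ENSMUSG00000096780) is a minus-strand gene of chromosome 17, bases 6438524 to 6467022. It was at 8.31 CPM in WT against 24.9 CPM in AS podocyte-like cells at 5 weeks, and at 10.2 against 21.3 CPM at 8 weeks. Levels in glomerular endothelial-like cells were 14.5 against 38.8 CPM at 5 weeks and 21.0 against 44.3 CPM at 8 weeks. Mesangial-like levels were 11.9 against 28.7 CPM, then 13.6 against 27.3 CPM. Glomerular endothelial-like cells held the most in every library, and within each class both AS values lay above both WT values. The log2 ratios were 1.17 (1.02 to 1.31), 1.17 (0.9985 to 1.33) and 0.999 (0.81 to 1.18) at 5 weeks, and 0.79 (0.68 to 0.91), 0.92 (0.67 to 1.18) and 0.80 (0.55 to 1.05) at 8 weeks, in the same class order, the last at 0.89 without cluster 11. Their range over the 3 classes, 0.17 at 5 weeks and 0.13 at 8 weeks, compares with medians of 0.20 and 0.30 over all genes measured in the 3 classes. The same range was 0.19, then 0.45, for Cdk5rap1, 0.62 at both ages for Eps8l1, and 0.18, then 1.89, for Slc15a2. A shift in 1 direction in all classes was thus not always of like size. In the other clusters Tmem181b-ps was higher in AS in 6 of 7 at 5 weeks, the seventh holding no UMI of it in either library, and in 5 of 5 at 8 weeks. The counting interval lay above 0 in 4 of the 7 and in 5 of the 5. Within the mesangial-like class cluster 11 did not share the shift at 8 weeks, with 57 WT UMIs (14.1 CPM) and 10 AS UMIs (13.0 CPM).

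Reads of Tmem181b-ps can be confused with those of its coding relative Tmem181a. Of the 31-base words in its 4 annotated transcripts, 52.6% also occur in those of Tmem181a. Tmem181a itself did not pass 1.5-fold in any class: its log2 ratios were 0.00, -0.10 and -0.03 at 5 weeks, then -0.30, -0.13 and -0.23. The sum of Tmem181a, Tmem181b-ps and Tmem181c-ps was higher in AS by 0.66, 0.52 and 0.53 at 5 weeks and by 0.28, 0.46 and 0.32 at 8 weeks. Tmem181c-ps held at most 20 UMIs in any class and library.

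Eps8l1 (ENSMUSG00000006154) is a plus-strand gene of chromosome 7, bases 4460674 to 4480487. It was at 4.46 CPM in WT against 10.3 CPM in AS podocyte-like cells at 5 weeks, and at 3.04 against 4.60 CPM at 8 weeks. In glomerular endothelial-like cells it was at 9.76 against 31.4 CPM at 5 weeks and at 7.85 against 18.6 CPM at 8 weeks. The mesangial-like level was 9.15 against 30.2 CPM, then 8.21 against 15.6 CPM. AS was above WT in each class and age, but the podocyte-like AS level at 8 weeks was close to the WT level at 5 weeks. The log2 ratios at 5 weeks were 0.69 (0.53 to 0.85), 1.30 (1.12 to 1.48) and 1.32 (1.13 to 1.502). At 8 weeks they were 0.26 (0.13 to 0.38), 0.88 (0.55 to 1.19) and 0.64 (0.36 to 0.91), and 0.87 in mesangial-like cells without cluster 11. Without the pseudocount the podocyte-like fold at 8 weeks was 1.51 (1.22 to 1.89). Within AS, 8 over 5 weeks gave -0.67, -0.62 and -0.78 in the same class order, and within WT -0.24, -0.20 and -0.10. An antisense gene, Gm15494, overlaps exons of Eps8l1 and held 4.28 CPM or less in these classes, with log2 ratios of -0.16 to 0.22. In clusters outside the classes Eps8l1 was higher in AS in 6 of 7 at 5 weeks and 5 of 5 at 8 weeks. The counting interval lay above 0 in 4 of the 7 and in 2 of the 5.

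Promoter sequence is shown for 3 of the genes that passed 1.5-fold in all classes at 5 weeks, to let the reader compare their base composition. Starts here are those of RefSeq, which differ from the GENCODE starts for some genes: the windows of Cdk5rap1 and Coil lie inside their GENCODE gene spans, and that of Atf7ip2 mostly so. RefSeq (GRCm38.p6) gave start sites for 6 of the 7 genes, with Tmem181b-ps not matched, and the 250 bases before the first listed start are printed 5′ to 3′ with CpG pairs in capitals.
Cdk5rap1 (chr2:154372720-154372969, minus strand): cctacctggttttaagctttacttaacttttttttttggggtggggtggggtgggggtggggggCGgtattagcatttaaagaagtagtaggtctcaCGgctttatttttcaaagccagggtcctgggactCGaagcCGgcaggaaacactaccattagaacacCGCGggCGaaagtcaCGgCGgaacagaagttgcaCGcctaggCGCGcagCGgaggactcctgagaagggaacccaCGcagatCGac
Eps8l1 (chr7:4460447-4460696, plus strand): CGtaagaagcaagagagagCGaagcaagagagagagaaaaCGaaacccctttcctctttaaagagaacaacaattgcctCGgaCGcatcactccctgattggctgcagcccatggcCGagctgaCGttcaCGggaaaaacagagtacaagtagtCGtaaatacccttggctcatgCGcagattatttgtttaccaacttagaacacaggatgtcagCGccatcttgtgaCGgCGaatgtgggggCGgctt
Slc15a2 (chr16:36784963-36785212, minus strand): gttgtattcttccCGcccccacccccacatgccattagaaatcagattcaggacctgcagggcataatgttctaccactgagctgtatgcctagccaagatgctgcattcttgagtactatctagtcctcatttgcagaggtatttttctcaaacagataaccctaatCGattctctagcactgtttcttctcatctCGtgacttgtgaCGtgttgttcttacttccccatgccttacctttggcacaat
These hold 15, 14 and 4 CpG pairs, against a median of 6 (quartiles 2 and 16) over 32851 RefSeq promoter windows of the same length. Coil, Atf7ip2 and Slc27a3 hold 16, 15 and 13. Of 4 motifs searched on both strands, GGGCGG, a GC box, occurs in the first window of all 6 matched genes and in 32.7% of all windows. CCAAT occurs in those of Eps8l1, Atf7ip2 and Slc27a3 (33.8% of all), TATAAA in that of Coil (12.4%), and a pair of GAAA words with 2 bases between them, the form of interferon response elements, in that of Eps8l1 (2.98%). A match is a description of letters, not a site.

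**Figure D2:**
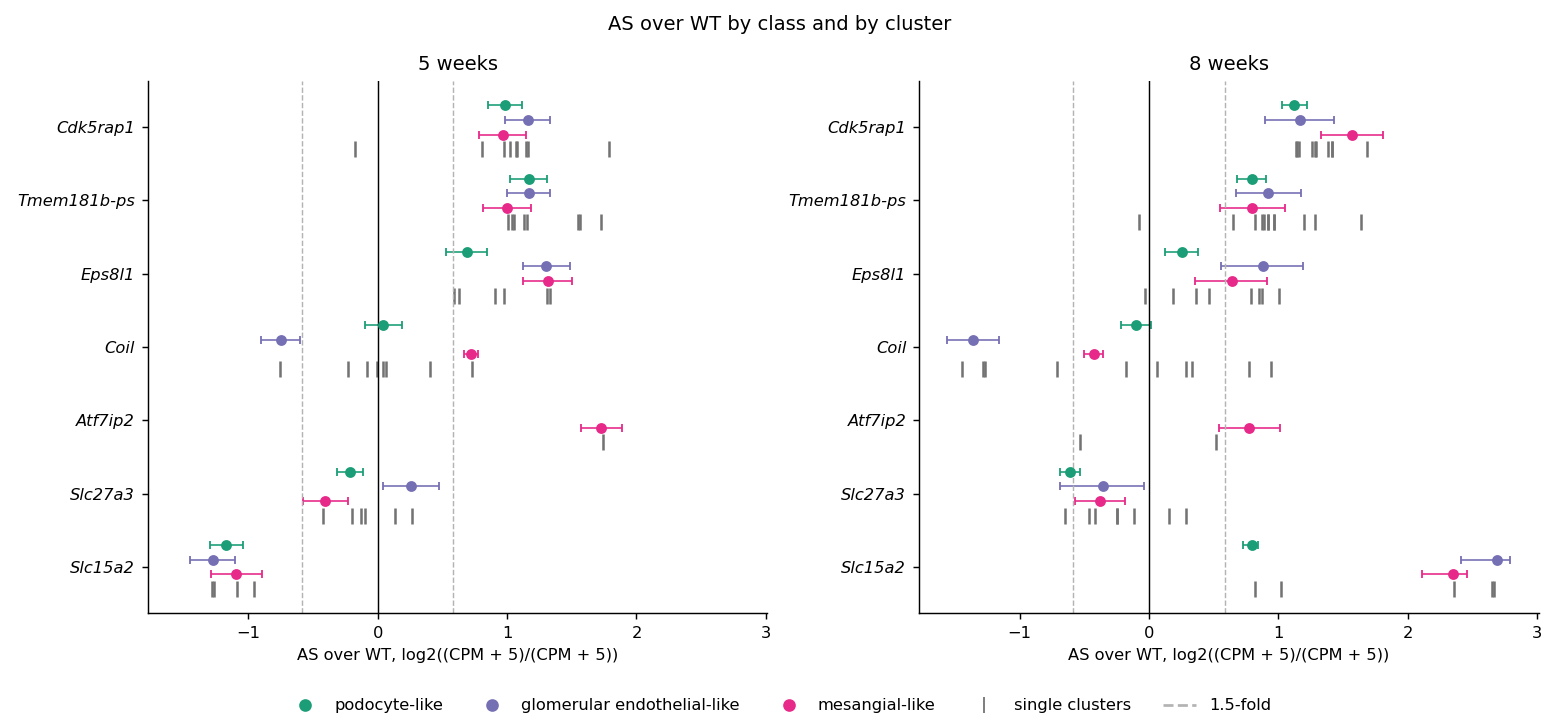
AS over WT log2 ratio (horizontal axis) of each gene at 5 weeks (left) and 8 weeks (right), with coloured points for the 3 classes, bars for 95% counting intervals, grey ticks for single clusters with at least 50 cells in both libraries, and dashed lines at 1.5-fold. The 3 classes lie together above 0 for Cdk5rap1 and Tmem181b-ps at both ages, apart for Coil, and on opposite sides of 0 at the 2 ages for Slc15a2.

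Slc15a2 (ENSMUSG00000022899) is a minus-strand gene of chromosome 16, bases 36750177 to 36784962. Within an age it moved the same way in all 3 classes, and the ages were opposite. Podocyte-like cells held 8.995 CPM in WT against 1.19 CPM in AS at 5 weeks, and 0.226 against 4.10 CPM at 8 weeks. Glomerular endothelial-like cells held 32.3 against 10.4 CPM at 5 weeks, and 0.424 against 29.9 CPM at 8 weeks. Mesangial-like cells held 20.4 against 6.89 CPM at 5 weeks, and 0.474 against 22.8 CPM at 8 weeks. In each class WT at 8 weeks was the lowest library, and WT at 5 weeks and AS at 8 weeks were the highest pair, except that their order differed in mesangial-like cells. The log2 ratios at 5 weeks were -1.18 (-1.29 to -1.04), -1.28 (-1.45 to -1.10) and -1.10 (-1.29 to -0.90). At 8 weeks they were 0.80 (0.73 to 0.85), 2.69 (2.41 to 2.79) and 2.35 (2.11 to 2.45), and mesangial-like cells without cluster 11 also gave 2.35.

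The 8-week Slc15a2 ratios rest on very few WT molecules. The 3 WT classes held 9, 2 and 3 UMIs, against 254, 543 and 502 in AS. Without the pseudocount the folds were 18.2 (9.41 to 40.1), 70.6 (19.4 to 584) and 48.2 (16.4 to 235). Within WT the log2 ratio of 8 over 5 weeks was -1.42, -2.78 and -2.22, and within AS it was 0.55, 1.18 and 1.23, so the difference between the WT libraries was larger in each class than the genotype difference at 5 weeks. With the WT libraries of the ages exchanged, the 5-week AS ratios turned to 0.25, 1.504 and 1.12, and those at 8 weeks were -0.62, -0.09 and 0.13. A direction for Slc15a2 therefore depends on which WT library is used.

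The WT library at 8 weeks was not empty of Slc15a2. Distal tubule-like cluster 23, with 250 of its cells, held 109 of the 132 UMIs in all its kept cells, or 22.4 CPM (18.4 to 27.0), and the 17 cells of that cluster in AS had 22.3 CPM (10.7 to 40.9). Among its 17 clusters with at least 50 cells, 1 reached 5 CPM. In the WT library at 5 weeks 11 of 12 did, in the AS library at 5 weeks 9 of 15, and in the AS library at 8 weeks 13 of 14. Distal tubule markers summed to 24.1 to 45.6 CPM in the 3 classes of WT at 8 weeks and to 0.882 CPM or less in those of the other libraries. At 5 weeks the other clusters gave a lower AS value in 6 of 7, the exception being arterial endothelial-like cluster 9 with 19 WT against 16 AS UMIs. The counting interval lay below 0 in only 2 of the 7. At 8 weeks the AS value was higher in 5 of 5, with the interval above 0 in 4.

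**Figure D3:**
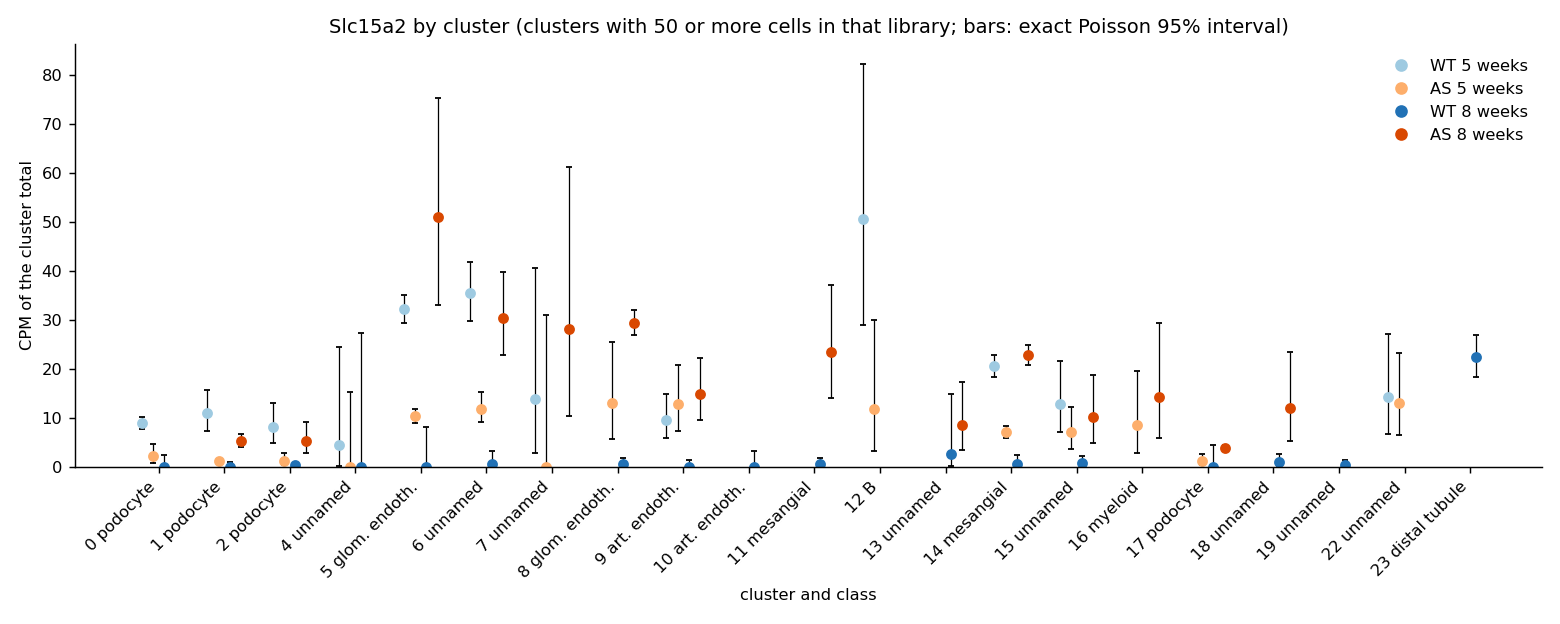
Slc15a2 level (vertical axis, CPM of the cluster total) in each cluster with at least 50 cells in that library, coloured by library, with exact Poisson 95% intervals. The WT library at 8 weeks lies near 0 in all its clusters but distal tubule-like cluster 23, at 22.4 CPM.

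Only 3 genes, 0.0269% of 11151, were past 1.5-fold lower at 5 weeks and higher at 8 weeks in all 3 classes. The other two were Gbp3 and Ifit3, both known as interferon-inducible, and were named after their values were seen. Gbp3 had log2 ratios of -2.91, -1.13 and -1.39 at 5 weeks, then 0.60, 0.65 and 0.83. Ifit3 had -0.89, -0.74 and -0.79, then 1.002, 0.61 and 0.997. The WT library at 5 weeks, the base of the first ratios, holds 83.1% of its podocyte-like cells in cluster 0, which is led by Gbp2, another interferon-inducible gene, and the part of this in the ratios was not tested.

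Coil (ENSMUSG00000033983), a plus-strand gene of chromosome 11, bases 88970252 to 88991613, was most abundant of the 3 classes in mesangial-like cells. There it stood at 250.2 CPM in WT against 415 CPM in AS at 5 weeks, and at 304 against 225 CPM at 8 weeks. Glomerular endothelial-like cells had 41.5 against 22.6 CPM at 5 weeks and 59.2 against 19.96 CPM at 8 weeks. Podocyte-like cells had 14.5 against 15.1 CPM, then 13.7 against 12.4 CPM. The classes kept this order in every library, and the genotypes did not: AS was higher in mesangial-like cells at 5 weeks, lower in endothelial-like cells at both ages, and within counting error in podocyte-like cells.

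The Coil log2 ratios at 5 weeks were 0.04 (-0.10 to 0.19), -0.75 (-0.90 to -0.60) and 0.72 (0.66 to 0.77) with the classes in the order used above. At 8 weeks they were -0.10 (-0.22 to 0.01), -1.36 (-1.56 to -1.16) and -0.43 (-0.50 to -0.35). Without cluster 11 the last was -0.71, past 1.5-fold. Over all kept cells pooled, Coil was higher in AS at both ages (0.53 and 0.32), while the mesangial-like share of kept cells was 13.2% (WT) and 14.7% (AS) at 5 weeks, then 4.79% (WT) and 19.6% (AS). Its range over the classes, 1.47 at 5 weeks and 1.26 at 8 weeks, was wider than that of 99.6% and 95.2% of all genes. Markers of mesangial cells had a median level in glomerular endothelial-like cells of 0.466% to 0.622% of the mesangial-like level, whereas Coil stood there at 16.6% and 19.5% in WT and 5.45% and 8.88% in AS (5 weeks, then 8 weeks). The pseudogene 2210409E12Rik overlaps Coil exons on the same strand, so reads of the pair can be split or assigned either way. It was a leading gene of cluster 11 and had mesangial-like levels of 32.1 against 55.8 CPM at 5 weeks and 55.4 against 54.2 CPM at 8 weeks, with log2 ratios of 0.71 and -0.03. In glomerular endothelial-like cells its ratios were -0.56 and -0.85, the same sign as Coil. Clusters outside the classes were divided for Coil: AS was higher in 3 of 7 at 5 weeks and 3 of 5 at 8 weeks, with 24.8 CPM in AS below 67.5 in WT in arterial endothelial-like cluster 9 at 8 weeks. The counting interval excluded 0 in 0 of the 7, and of the 5 it lay above 0 in 1 and below 0 in 1.

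Atf7ip2 (ENSMUSG00000039200) is a plus-strand gene of chromosome 16, bases 10192712 to 10251478. In mesangial-like cells it was at 16.4 CPM in WT against 66.0 CPM in AS at 5 weeks, and at 16.3 against 31.4 CPM at 8 weeks. Both AS libraries lay above both WT libraries. The WT levels were alike with cluster 11, but without it they were 16.5 CPM at 5 weeks and 21.0 CPM at 8 weeks, against 66.6 and 32.2 CPM in AS. The log2 ratios were 1.73 (1.57 to 1.89) and 0.78 (0.54 to 1.01), and without cluster 11 they were 1.74 and 0.52, the last under 1.5-fold. Thinned to 5000 UMIs per cell, 5.16% of WT against 22.0% of AS mesangial-like cells held a UMI at 5 weeks, and 6.55% and 10.5% at 8 weeks, with unthinned shares of 15.2% and 39.3%, then 15.99% and 20.5%. Podocyte-like cells held 1 to 7 UMIs per library and glomerular endothelial-like cells 0 to 6, at most 0.375 CPM, under 30 UMIs in every case. Whether Atf7ip2 shifts in those classes was not detectable at this depth.

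Slc27a3 (ENSMUSG00000027932) is a minus-strand gene of chromosome 3, bases 90385239 to 90389938. Podocyte-like cells held 44.2 CPM in WT against 37.4 CPM in AS at 5 weeks, and 52.6 against 32.7 CPM at 8 weeks. Mesangial-like cells held 25.4 against 17.9 CPM, then 36.8 against 27.2 CPM, and glomerular endothelial-like cells 5.32 against 7.33 CPM, then 9.54 against 6.34 CPM. Among the compared clusters it was most abundant in arterial endothelial-like cluster 9, with 82.3 against 76.5 CPM at 5 weeks and 84.9 against 60.1 CPM at 8 weeks. The log2 ratios at 5 weeks were -0.21 (-0.32 to -0.11) in podocyte-like, 0.26 (0.04 to 0.47) in glomerular endothelial-like and -0.41 (-0.58 to -0.23) in mesangial-like cells. At 8 weeks they were -0.61 (-0.69 to -0.53), -0.36 (-0.68 to -0.03) and -0.38 (-0.57 to -0.18), with -0.65 in mesangial-like cells without cluster 11. With WT cells of 5 weeks as the base, the 8-week values were -0.38, 0.14 and 0.08.

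Free RNA, which gives all cells of a library a like low level of the genes of its source cells, can be set beside these levels. Podocyte markers had a median level in glomerular endothelial-like cells of 0.933% to 4.02% of the podocyte-like level, and in mesangial-like cells of 1.38% to 7.35%, the highest in both in the WT library at 8 weeks. Glomerular endothelial markers stood in mesangial-like cells of that library at a median of 30.1% (23.8% to 51.8%) of their source level. The other libraries gave medians of 1.77% to 2.25%. In podocyte-like cells the same markers had a median of 0.340% in that library and 0.343% to 0.358% in the others. Cluster 11, which also holds endothelial markers, made up 64.0% of the UMIs of those mesangial-like cells, and its part was not tested. Cdk5rap1 stood in glomerular endothelial-like cells at 96.9% to 112% of its podocyte-like level, Tmem181b-ps at 156% to 208% and Eps8l1 at 219% to 405%. Atf7ip2 stood in podocyte-like cells at 0.132% to 0.360% of its mesangial-like level, in every library under the median of the mesangial markers there (0.233% to 0.432%). Barcodes that failed the cell filters held 5 to 25 Cdk5rap1 UMIs per library. The lowest level was 7.49 CPM in AS at 5 weeks and the highest 38.2 CPM in AS at 8 weeks. With so few UMIs no order by genotype can be read there. These barcodes held at least 500 UMIs each, so they do not measure free RNA alone.

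The genes with a shift most like that of Cdk5rap1 and Tmem181b-ps were sought among genes measured in all 3 classes. Left out beforehand were genes of the mitochondrial genome, cytosolic ribosomal protein, hemoglobin and Y-linked genes and Xist. Genes without a symbol name (Gm, Rik or accession-like) and symbols shared by gene IDs were left out too. The 1059 remaining genes higher in AS in every class at both ages were ranked by the smallest of their 6 log2 ratios. Cdk5rap1 (0.97) and Tmem181b-ps (0.79) ranked highest, followed by Ide, the insulin-degrading enzyme (0.42), the glycolytic enzyme Tpi1 (0.32), the RNA-binding Lsm4 (0.31) and the mitochondrial ribosomal protein Mrps12 (0.31). Ide was at 30.6 CPM in WT against 60.4 CPM in AS podocyte-like cells at 5 weeks and at 42.8 against 59.0 CPM at 8 weeks. Its log2 ratios were 0.88, 0.88 and 0.96 at 5 weeks, then 0.42, 0.45 and 0.53. Eps8l1 ranked 30 with 0.26. Of 562 genes lower in AS throughout after the same exclusions, Scd2, a fatty acid desaturase (-0.68), came first. Next were the MHC class I gene H2-Q6 (-0.66) and the mutated Col4a5 (-0.40), then Sulf1 (-0.30), Snhg9 (-0.29) and Errfi1 (-0.27). Scd2 was at 512 against 317 CPM in podocyte-like cells at 5 weeks and at 379 against 230.4 CPM at 8 weeks. H2-Q6 has near-identical relatives, so its counts are uncertain.

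**Figure D4:**
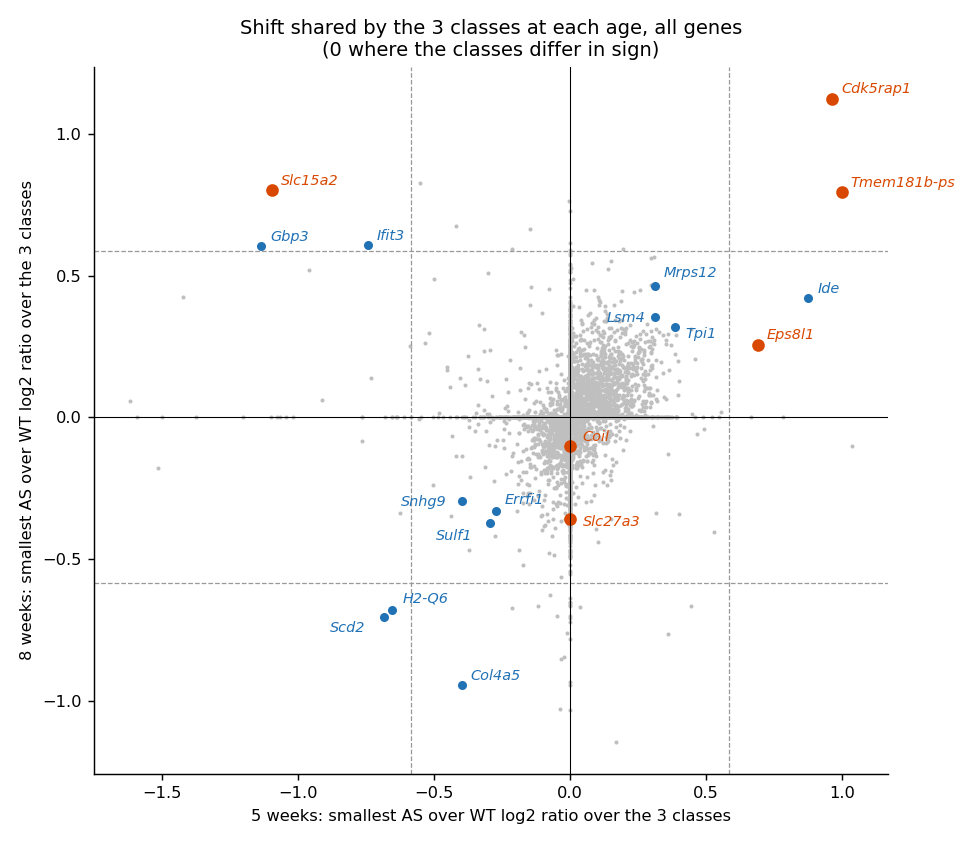
Each point is a gene measured in all 3 classes at both ages, placed by the smallest of its 3 class log2 ratios (AS over WT) at 5 weeks (horizontal) and 8 weeks (vertical), or at 0 where the classes differ in sign. Dashed lines mark 1.5-fold, orange points are the listed genes and blue points the genes most like them or opposite at the 2 ages. Cdk5rap1 and Tmem181b-ps alone lie past both lines at the upper right, and Slc15a2 lies with Gbp3 and Ifit3 at the upper left.

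Counts for relatives of the 7 genes are read against the shares of all genes past 1.5-fold, 1.67% to 2.73% per class at 5 weeks and 3.65% to 9.76% at 8 weeks, at which lists this short would hold few or none. Of 12 tRNA modification genes beside Cdk5rap1, 0 passed it in any class or age by this descriptive fold, as did 0 of 13 measured Cajal body and snRNP genes beside Coil and 0 of 9 genes of ATF7IP and SETDB1 silencing beside Atf7ip2. Their class medians lay between -0.19 and 0.14, against medians of -0.05 to 0.02 over all genes. Among EPS8 relatives and partners Wasl, an actin nucleation factor, was higher in podocyte-like cells at 8 weeks (0.59), and Eps8l2 (-1.003) and Baiap2 (-1.58) were lower in mesangial-like cells at 8 weeks. Without cluster 11 those values were -0.39 and -0.91. Baiap2 stood at 51.9 CPM in those WT cells against 13.7 to 16.8 CPM in the other libraries, and at 113 CPM in glomerular endothelial-like WT cells of that age, while glomerular endothelial markers summed to 7419 CPM in the first against 1201 to 1605 CPM elsewhere. Their part in the difference was not tested. Among fatty acid genes the acyl-CoA synthetase Acsl4 was higher in podocyte-like cells at both ages (1.28 and 1.60) and Acsl5 at 8 weeks (0.65). Of the peptide transporters Slc15a3 was lower in mesangial-like cells at 8 weeks (-0.72), with 6.47 CPM in WT against 1.96 CPM in AS, and at -0.17 without cluster 11.

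Neighbours on the chromosome were compared, up to 5 genes on each side of each of the 7 with at least 30 UMIs in podocyte-like cells of a library. Of 57 to 65 measured per class at 5 weeks, 1 passed 1.5-fold in each class, and of 58 to 70 at 8 weeks 3, 0 and 4 did, in the usual class order. These counts lie near or under the shares over all genes, 2.73%, 1.67% and 2.59% at 5 weeks, then 5.56%, 3.65% and 9.76%, and nothing particular to the neighbours is read from them. The gene nearest to Tmem181b-ps, Dynlt1b, a dynein light chain gene that lies 2.23 kb from it, was higher in AS in all 6 ratios but under 1.5-fold, with 0.46, 0.55 and 0.52 at 5 weeks, then 0.20, 0.48 and 0.46 (the last 0.12 without cluster 11). Its relatives on either side differed by class: Dynlt1a had -0.03, 0.50 and 0.43, then -0.37, 0.49 and 0.28, and Dynlt1f had 0.12, 0.44 and 0.41, then -0.41, 0.22 and -0.38. These Dynlt1 copies resemble each other, so their counts are uncertain. Those past 1.5-fold beside Tmem181b-ps were Dynlt1c (podocyte-like, 8 weeks, -0.66) and Ezr (mesangial-like, 8 weeks, -1.62, and -1.27 without cluster 11), both lower in AS. None of the measured neighbours of Eps8l1 or Slc27a3 did in any class. Further ones were Mmd beside Coil (-0.87) and Carhsp1 beside Atf7ip2 (-0.79), both mesangial-like at 8 weeks (-0.32 and -0.14 without cluster 11), Emp2 and Socs1 beside Atf7ip2, and 2010005H15Rik beside Slc15a2 (podocyte-like, 8 weeks, 0.65). Emp2 had 0.64 in glomerular endothelial-like cells at 5 weeks and 0.62 in mesangial-like cells at 8 weeks (0.33 without cluster 11), and Socs1 had -0.67 in podocyte-like and -1.005 in mesangial-like cells at 5 weeks.

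Other lists show how the libraries compared, and are read beside the shares of all genes past 1.5-fold in either direction. Those shares were 2.73%, 1.67% and 2.59% at 5 weeks, then 5.56%, 3.65% and 9.76%, in the usual class order. Of 4 measured sex-linked genes, 0 passed 1.5-fold at 5 weeks and 1, Eif2s3y in podocyte-like cells (-0.74), at 8 weeks. Xist stood at 0.339 CPM or less in the 3 classes of every library, where the Y-linked Ddx3y stood at 78.6 to 138 CPM. Of up to 4 measured genes listed as known to differ between mouse strains, Ide alone passed it, in all 3 classes at 5 weeks. Of 8 genes induced by tissue dissociation, 4 were higher in AS podocyte-like cells at each age, where 2.73% (5 weeks) and 5.56% (8 weeks) of all genes passed 1.5-fold in either direction, while in mesangial-like cells 3 were lower at 5 weeks and 1 at 8 weeks, and in glomerular endothelial-like cells 1 was lower at 5 weeks and 1 higher at 8 weeks. The part of strain, dissociation or library differences in the shifts of the 7 genes was not tested.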

How the data were processed

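Glomerular cells of 4 libraries were profiled by droplet 3′ single-cell RNA sequencing. Each deposited matrix holds unnormalized UMI counts, written by Cell Ranger 9.0.0 according to its header (per the file headers). Named as well, in the submitters' processing notes, are bcl2fastq 2.20.0, STAR 2.7.2a and the build GRCm38 (mm10). The annotation release is not given in the sources used here, and 55141 of the 55488 gene IDs are in GENCODE M21, which gave coordinates.

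Cells with at least 500 genes, 1000 UMIs and no more than 20% of them mitochondrial passed, and Scrublet doublets (2.40% to 6.32% per library) were then removed. Clustering (scanpy 1.11.5, Leiden resolution 1) used 2000 variable genes without the 7 members and gave 25 clusters. Class names needed 3 detected markers, a lead of 1 log2 and concordant leading genes. They also needed either a depth of at least 1/3 of the library's median or a marker of the class among the leading genes. Counts were summed per class and library. Class totals ran from 4714958 to 61979154 UMIs. Intervals (95%) are exact Poisson for levels and exact conditional binomial for ratios. The code was tested on simulated data.

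The members, gene lists and rules were chosen with earlier results of these data known. Genes named were the 7, the 6 highest and 6 lowest ranked like them, list relatives past 1.5-fold and neighbours past 1.5-fold, of which 1 is not reported here. Nnt was left out of the strain list because 2 gene IDs share its symbol.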

Additional observations from a re-analysis of the deposited data

Results flagged for a closer look

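Slc15a2 differed from WT in opposite directions at the 2 ages in each class. The log2 ratio of AS over WT was -1.18 at 5 weeks and 0.80 at 8 weeks in podocyte-like cells. In glomerular endothelial-like cells it was -1.28, then 2.69. Mesangial-like cells gave -1.10, then 2.35. Coil differed in opposite directions between classes at 5 weeks, with 0.72 in mesangial-like and -0.75 in glomerular endothelial-like cells. With 1 library per group neither difference was tested.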

How the results depend on the processing

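The number of genes past 1.5-fold in 1 direction in all 3 classes was 4 at 5 weeks and 3 at 8 weeks under a pseudocount of 1 CPM, doublets kept, resolution 0.5 or 2, ratios centred on the median of all genes, and mesangial-like cells without cluster 11 (the last chosen after seeing the data). With the WT libraries exchanged between ages it was 3 and 2, Slc15a2 dropping out at both ages. That exchange turned Slc15a2 to 0.25, 1.504 and 1.12 at 5 weeks (podocyte-like, then glomerular endothelial-like, then mesangial-like), and to -0.62 and -0.0933 in the first 2 at 8 weeks. The share of all genes shifted alike was 0.405% at 5 weeks and 0.479% at 8 weeks, and 0.333% to 0.474% and 0.373% to 0.449% with floors of 10 or 100 UMIs. Of 42 ratios of the 7 genes, 23 left their counting interval with the pseudocount of 1 CPM and 27 with the WT libraries exchanged. With doublets kept 4 did, as did 4 without cluster 11, 2 when centred, and 1 at each other resolution. Leaving out cluster 11 alters mesangial-like ratios only, so the podocyte-like and glomerular endothelial-like ratios among the 42 could not move. The intervals were those of the pseudocount of 5 CPM and were not recomputed. The count at 1 CPM therefore compares ratios on unlike scales and does not measure stability. No paired analysis was possible because each group holds 1 library. The WT library at 8 weeks, with 4714958 UMIs in glomerular endothelial-like cells, limits precision there.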
